A study of Mus musculus with 6 samples.

Results

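Accessible chromatin of mouse bone marrow-derived macrophages (BMDMs) given IL-4 together with latrunculin A was compared with that of resting BMDMs given only the vehicle DMSO. The comparison asks whether the treated library holds the accessibility that IL-4 brings or returns to the resting state. It covers 33476 sites out of 578591 in the study's site table, namely those on autosomes (534067 sites) whose deposited signal averaged at least 3.2 over the 6 libraries of the study. The compared libraries are 2 of those 6. Each group was 1 library, so there is no replicate, no difference was tested, and every ratio compares a pair of libraries and not a pair of conditions.

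IL-4 is a type 2 cytokine that signals through its receptor and the transcription factor STAT6, and it brings macrophages into the alternatively activated state linked to tissue repair and parasite defence. Latrunculin A binds actin monomers and blocks their assembly into filaments. In ATAC-seq the Tn5 transposase inserts sequencing adapters where DNA is not wrapped tightly, so the reads that fall on a site measure how open it is. In a bulk library, a change in the share of cells with an open site and a change within each cell cannot be told apart.

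All 6 libraries came from wild-type C57BL/6J BMDMs (the strain label reads C57BL/6) that were differentiated from marrow in medium conditioned by L929 cells, a source of MCSF, and the labels give no age. The groups were Untreated, IL-4 (20 ng/ml for 24 h), DMSO, DMSO + IL-4, LatA + IL-4 (latrunculin A at 1 μM) and MCSF + IL-4 (MCSF at 100 ng/ml). The IL-4 dose and time were shared by the 4 groups that received it. No library with latrunculin A and without IL-4 was analysed here, so what latrunculin A does to resting cells cannot be told apart here from what it does to the IL-4 response. The labels do not say how many mice gave the marrow, and their titles carry the word Petri, whereas the study's text places these cultures on tissue culture plates.

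The DMSO library had 17808959 reads in sites and the LatA + IL-4 library had 14897964, within a range of 12387332 to 19889902 over the 6 libraries. A signal of 3.2 stands for 39.9 to 66.8 reads, depending on the library. Reads were concentrated in few sites, and the 20 largest took 22.2% of the reads in DMSO, 19.5% in DMSO + IL-4, 15.2% in MCSF + IL-4 and 13.5% in LatA + IL-4. Below, normalized reads are reads scaled with the deposited library sizes, and 1 read is added to each before a ratio is taken, and a site whose ratio passed 1.5-fold is called higher or lower. Folds of single sites are given without the added read, and their intervals of 95% are exact and cover counting error only.

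Most sites that differed between LatA + IL-4 and DMSO were higher with LatA + IL-4. Of the 33476 sites, 13907 were higher (41.5%), 1954 were lower (5.84%) and 17615 lay within 1.5-fold. A 2-fold limit was passed by 6124 higher (18.3%) and 688 lower sites (2.06%). The median log2 ratio over all sites was 0.48, a 1.40-fold difference, and the middle 80% of sites ran from −0.32 at the percentile 10 to 1.30 at the percentile 90. Because the bulk of sites was displaced in this way, log2 ratios are given below both as measured and relative to the median of all sites. The split depended in part on the scale. As measured, 87.7% of the called sites were higher. The share was 88.9% when scaled on total reads in sites and 88.1% with median-of-ratios size factors. It was 75.5% when libraries were scaled on reads outside sites of at least 1000 reads. Subtracting the median ratio in 20 bins of mean reads left 52.2%, but that step sets the median to 0 and so fixes a near-even split. The displacement was 0.32 for MCSF + IL-4 against DMSO and −0.041 for DMSO + IL-4 against DMSO. These 3 comparisons share the DMSO library, so where their calls agree at the same sites, the agreement is in part set by that library. The 2 resting libraries differed as well, with DMSO higher than Untreated at 17.4% of sites and lower at 2.08%, and LatA + IL-4 was higher than Untreated at 69.4% and lower at 6.33%.

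IL-4 sites were picked in the IL-4 and Untreated libraries, which the comparison of LatA + IL-4 with DMSO does not use. By the 1.5-fold call, IL-4 exceeded Untreated at 7589 sites (22.7%), which are called IL-4-induced, and fell below it at 1838 sites (5.49%), which are called IL-4-closed, leaving 24049 that were neither. At 3-fold, 1142 sites were induced (3.41%) and 99 closed (0.296%).

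At IL-4-induced sites the LatA + IL-4 library lay on the IL-4 side. Of the 7589 sites, 6141 (80.9%) were higher in LatA + IL-4 than in DMSO, beside 41.5% of all sites. A further 1336 sites (17.6%) were within 1.5-fold of DMSO, and 112 (1.48%) were lower. The median log2 ratio was 1.06, a 2.08-fold rise, and 0.58 relative to all sites. In the vehicle, DMSO + IL-4 was higher than DMSO at 3572 of the same sites (47.1%, beside 14.1% of all sites), with a median of 0.55 as measured and 0.59 relative to all sites. In MCSF + IL-4, 5666 sites (74.7%, beside 32.9% of all sites) were higher than in DMSO, with a median of 1.05 as measured and 0.73 relative to all sites. The measured share was therefore larger with latrunculin A than in the vehicle, but after the median of all sites was subtracted from each comparison the shares came to 49.4% for LatA + IL-4, 50.3% for DMSO + IL-4 and 58.3% for MCSF + IL-4, beside 16.0%, 15.4% and 19.6% of all sites. At the 24049 other sites, 31.0% were higher with LatA + IL-4 and 6.59% were lower.

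The ratio of LatA + IL-4 to DMSO rose with the size of the IL-4 response. At the 4196 sites raised 1.5- to 2-fold by IL-4 over Untreated, its median log2 value was 0.87 and 74.6% of sites were higher. The median was 1.21 at the 2251 sites of 2- to 3-fold (87.4% higher) and 1.73 at the 795 sites of 3- to 5-fold (90.7% higher). It reached 2.43 at the 347 sites of more than 5-fold, a 5.38-fold difference, with 92.5% of sites higher, 16 sites within 1.5-fold and 10 lower. The corresponding medians for DMSO + IL-4 were 0.35, 0.76, 1.33 and 2.16. Relative to all sites, LatA + IL-4 stood at 0.39, 0.73, 1.25 and 1.94 in these 4 classes and DMSO + IL-4 at 0.39, 0.80, 1.37 and 2.20. Relative to all sites, the medians of both libraries thus coincided in the weakest class. The share also rose across the 1.5-fold limit itself. Of the 1598 sites of 1.4- to 1.5-fold, 59.4% were higher in LatA + IL-4 than in DMSO, and of the 1212 sites of 1.5- to 1.6-fold, 68.1% were. In DMSO + IL-4 the shares were 11.3% and 18.5%.

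**Figure D1:**
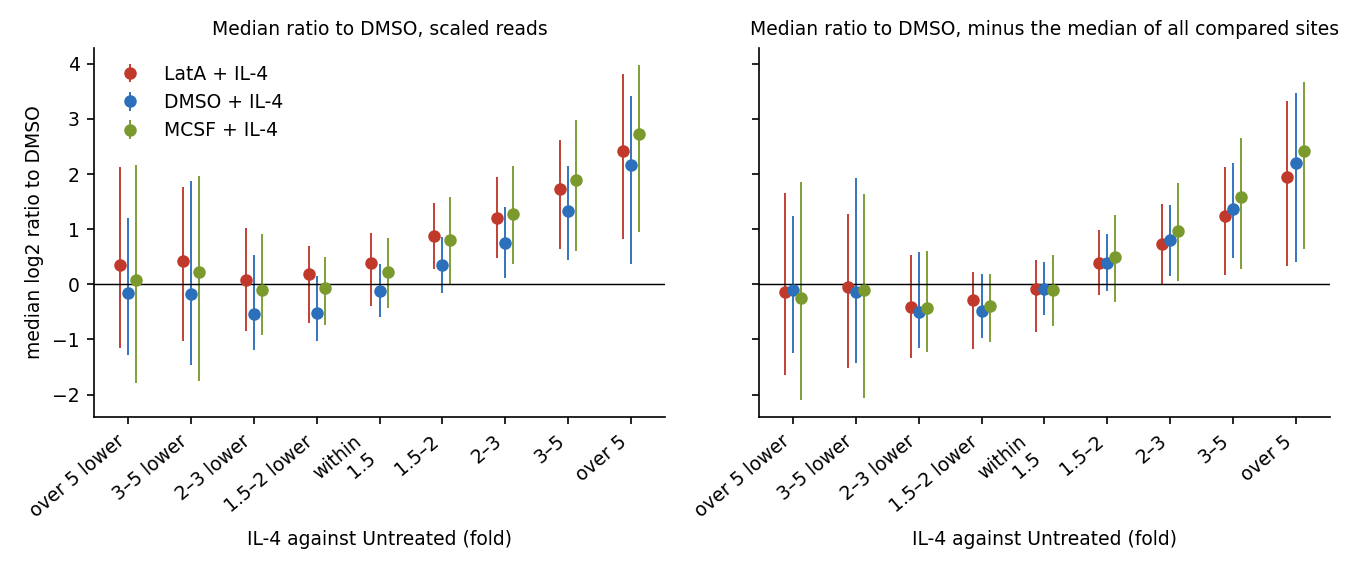
Median log2 ratio to DMSO (y axis) of LatA + IL-4, DMSO + IL-4 and MCSF + IL-4 at sites grouped by their fold in IL-4 against Untreated (x axis), as measured on the left and after the median of all 33476 sites was subtracted on the right. Points are medians over sites and bars run from the percentile 10 to the percentile 90 of sites, not over replicates; on the left LatA + IL-4 lies above DMSO + IL-4 in every class, and on the right, over the induced classes, it climbs from 0.39 to 1.94 beside 0.39 to 2.20 for DMSO + IL-4, with no such grading over the closed classes.

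**Figure D2:**
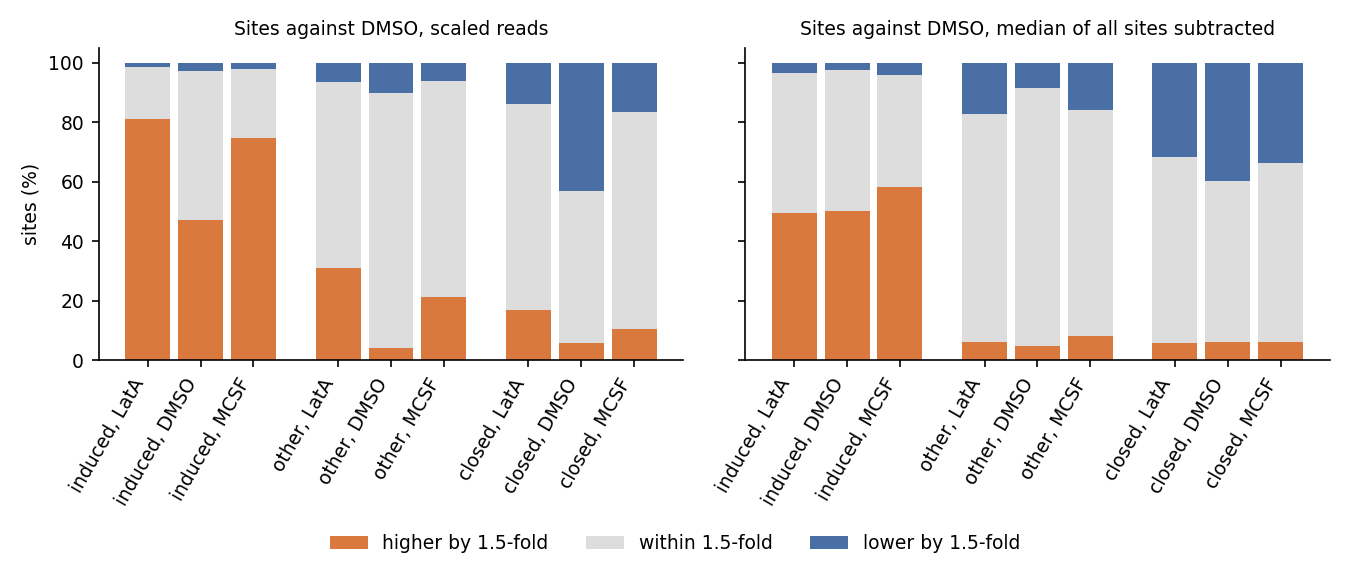
Share of sites (%, y axis) higher, within or lower by 1.5-fold against DMSO, for IL-4-induced, other and IL-4-closed sites in the LatA + IL-4, DMSO + IL-4 and MCSF + IL-4 libraries (x axis), as measured on the left and with the median of all sites subtracted on the right. Among induced sites the share higher is 80.9% for LatA + IL-4 and 47.1% for DMSO + IL-4 on the left (41.5% and 14.1% of all sites), and 49.4% and 50.3% on the right (16.0% and 15.4% of all sites).

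Set directly against DMSO + IL-4, the LatA + IL-4 library was higher at 15456 of all sites (46.2%) and lower at 1772 (5.29%), with a median log2 ratio of 0.55. At induced sites the median was 0.49, or −0.06 relative to all sites, and at the 347 sites of more than 5-fold it was 0.27, or −0.28 relative to all sites. After the median was subtracted, 84 of those 347 sites were lower in LatA + IL-4 than in DMSO + IL-4 (24.2%, beside 16.4% of all sites) and 35 were higher (10.1%, beside 7.71%). Each site was also assigned to the library whose level was nearer on the log2 scale, with each library centred on its own median level. LatA + IL-4 was nearer to DMSO + IL-4 than to DMSO at 5263 of the 7589 induced sites (69.4%) and at 956 of the 1142 sites induced at least 3-fold (83.7%), against 55.7% of all sites. Without centring the shares were 84.5% and 90.6%, against 48.1%. The centred MCSF + IL-4 library was nearer to DMSO + IL-4 at 71.7% of induced sites and at 86.0% of those induced at least 3-fold, against 60.7% of all sites.

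The 10 sites with the largest IL-4 rise show this library by library. They were ranked by the lower bound of the IL-4 to Untreated ratio, so neither the LatA + IL-4 nor the DMSO library had a part in the choice other than through the filter. All 10 were higher in LatA + IL-4 than in DMSO, with log2 ratios from 0.82 to 4.33, and 9 of the 10 exceeded DMSO in the vehicle with IL-4. The shares of all sites were 41.5% and 14.1%. The site at chr10:68188147-68188685 (mm9, as are all positions) had 1 read in Untreated and 6 in DMSO, against 94 in IL-4, 121 in LatA + IL-4, 85 in DMSO + IL-4 and 154 in MCSF + IL-4. All 4 libraries with IL-4 were high and both without it low, and LatA + IL-4 was 23.6-fold above DMSO (10.5 to 65.6). At chr14:18576052-18576610 the reads were 5 in Untreated and 7 in DMSO, against 122 in IL-4, 134 in LatA + IL-4, 117 in DMSO + IL-4 and 49 in MCSF + IL-4. Here LatA + IL-4 was 22.4-fold above DMSO (10.6 to 56.8), beside 23.0-fold for DMSO + IL-4 (10.8 to 58.4). A like pattern stood at chr1:193106964-193107507, with 1 read in Untreated and 10 in DMSO, against 106 in IL-4, 137 in LatA + IL-4, 70 in DMSO + IL-4 and 117 in MCSF + IL-4. At chr13:91116710-91117109 there were 3 reads in Untreated and 5 in DMSO, against 93 in IL-4, 69 in LatA + IL-4, 59 in DMSO + IL-4 and 148 in MCSF + IL-4, and the ratio of LatA + IL-4 to DMSO was 16.2 (6.60 to 51.3). These 4 sites were the ones among the 10 with at most 10 reads in both resting libraries.

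The best-covered of the 10, at chr19:29077375-29078381, held an intermediate level with latrunculin A. It had 43 reads in Untreated and 123 in DMSO, against 831 in IL-4, 430 in LatA + IL-4, 680 in DMSO + IL-4 and 480 in MCSF + IL-4. LatA + IL-4 was 4.09-fold above DMSO (3.34 to 5.04), and DMSO + IL-4 was 7.60-fold above it (6.26 to 9.28). The counting intervals of these ratios do not overlap, but no replicate shows how far 2 libraries of one condition would differ. At chr6:148237444-148237853 the level was likewise lower with latrunculin A, with 1 read in Untreated and 22 in DMSO, against 68 in IL-4, 54 in LatA + IL-4, 122 in DMSO + IL-4 and 61 in MCSF + IL-4. There the ratio to DMSO was 2.87 for LatA + IL-4 (1.72 to 4.96) and 7.62 for DMSO + IL-4 (4.81 to 12.6).

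In the remaining 4 of the 10, DMSO stood well above an almost empty Untreated library. With chr6:148237444-148237853, they were the 5 compared sites with at most 1 read in Untreated and at least 20 in every other library. Their rise in IL-4 against Untreated thus rested on a near-empty Untreated value. At chr8:10859973-10860526 the reads were 0 in Untreated and 61 in DMSO, against 128 in IL-4, 95 in LatA + IL-4, 81 in DMSO + IL-4 and 398 in MCSF + IL-4. With 0 reads in Untreated the IL-4 level was at least 56.6-fold higher, taking 3 reads in that library as the floor (the limit of the exact interval was 45.4), whereas LatA + IL-4 was 1.82-fold above DMSO (1.31 to 2.56). The sites at chr5:37177286-37177902 and chr10:11107740-11108430 also had 0 reads in Untreated, and they had 32 and 39 in DMSO and 49 and 90 in LatA + IL-4. The latter site was the exception in the vehicle, with 21 reads in DMSO + IL-4. At chr10:24638658-24639481 there was 1 read in Untreated and 33 in DMSO, against 84 in IL-4, 156 in LatA + IL-4, 106 in DMSO + IL-4 and 193 in MCSF + IL-4, so that LatA + IL-4 was 5.54-fold above DMSO (3.78 to 8.32).

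**Figure D3:**
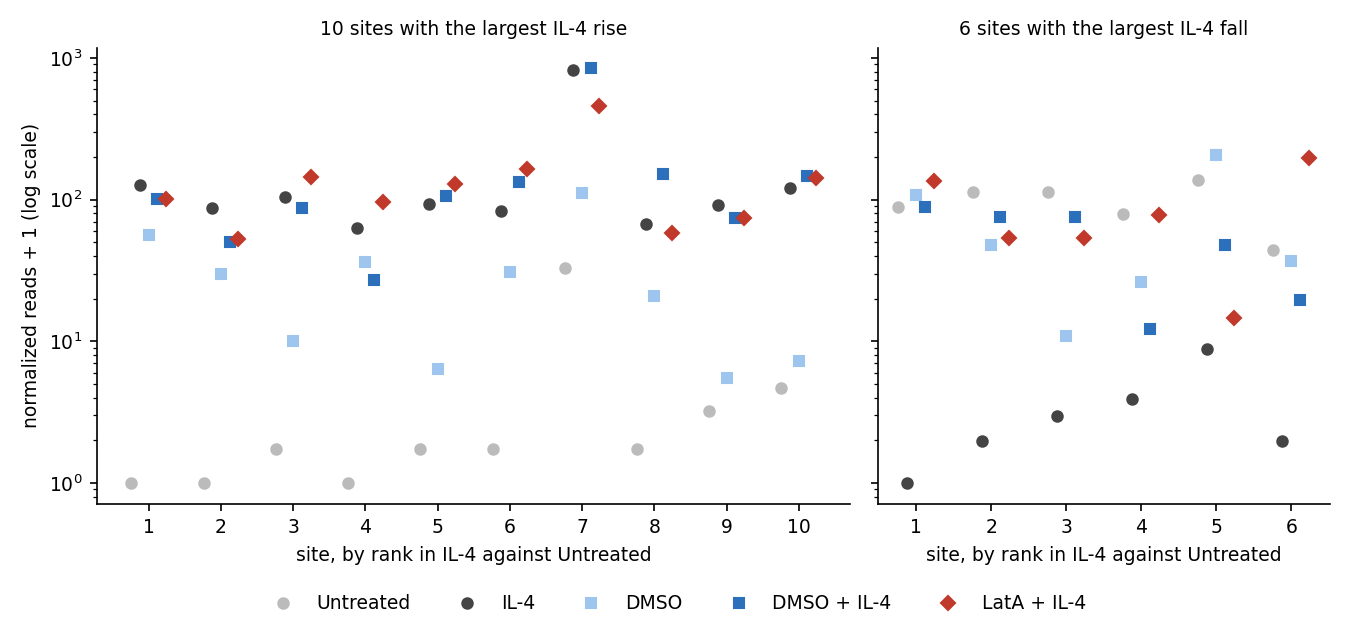
Normalized reads plus 1 (log scale, y axis) in 5 libraries at the 10 sites with the largest rise (left) and the 6 sites with the largest fall (right) in IL-4 against Untreated, ordered by rank (x axis); each point is 1 library. LatA + IL-4 lies above DMSO at 10 of the 10 sites on the left, and on the right it is lower than DMSO by 1.5-fold at 1 of 6.

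The induced sites that were not higher with latrunculin A than in DMSO numbered 1336 within 1.5-fold and 112 lower, and after subtraction of the median of all sites 3574 and 263. Among the 1142 sites induced at least 3-fold, 1042 were higher in LatA + IL-4 than in DMSO (91.2%), 74 were within 1.5-fold and 26 were lower, and after the subtraction 955, 147 and 40. In DMSO + IL-4 the counts were 993, 108 and 41 as measured and 1008, 94 and 40 after it. Over all sites the subtraction left 16.0% higher and 14.9% lower for LatA + IL-4, and 15.4% higher and 8.89% lower for DMSO + IL-4. The 5 lowest of the sites induced at least 3-fold had 1 to 22 reads in LatA + IL-4, but 88 to 160 in DMSO, which was above the 21 to 52 in Untreated at each of them. Low LatA + IL-4, high DMSO and low Untreated values were favoured by this choice, so the pattern is a description. At chr9:111111119-111112070 there were 41 reads in Untreated and 160 in DMSO, against 169 in IL-4, 22 in LatA + IL-4, 29 in DMSO + IL-4 and 31 in MCSF + IL-4, and LatA + IL-4 was 6.21-fold below DMSO (3.96 to 10.2). At this site DMSO + IL-4 was also lower than DMSO, by 4.01-fold (2.69 to 6.19). The site at chr11:60913090-60913984 differed in that the other libraries with IL-4 kept their reads, with 52 in Untreated and 88 in DMSO, against 126 in IL-4, 10 in LatA + IL-4, 60 in DMSO + IL-4 and 119 in MCSF + IL-4. LatA + IL-4 was 7.51-fold below DMSO there (3.90 to 16.2). Of the 5 sites, the lowest pair had 1 read in LatA + IL-4. Such near-empty values occurred in every library, since 23 compared sites had at most 1 read in 1 library and at least 20 in each of the other 5, with 2 to 5 such sites per library and 4 in LatA + IL-4.

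At IL-4-closed sites the LatA + IL-4 library lay nearer to DMSO in reads than DMSO + IL-4 did, as measured. Of the 1838 sites, 256 (13.9%, beside 5.84% of all sites) were lower in LatA + IL-4 than in DMSO, 1272 (69.2%) were within 1.5-fold and 310 (16.9%) were higher. The median log2 ratio was 0.18 as measured and −0.30 relative to all sites. DMSO + IL-4 was lower than DMSO at 794 of the same sites (43.2%, beside 10.4% of all sites), with a median of −0.51 as measured and −0.47 relative to all sites. For MCSF + IL-4 the count was 307 (16.7%, beside 5.91% of all sites) and the median −0.07, or −0.38 relative to all sites. After subtraction of the median of all sites, 581 closed sites were lower in LatA + IL-4 (31.6%, beside 14.9% of all sites), 728 in DMSO + IL-4 (39.6%, beside 8.89%) and 618 in MCSF + IL-4 (33.6%, beside 14.3%). The sign of the closed-site median as measured depended on the scale, since it was −0.022 when libraries were scaled on reads outside sites of at least 1000 reads. LatA + IL-4 was nearer to DMSO + IL-4 than to DMSO at 938 of the 1838 closed sites after centring (51.0%) and at 478 without it (26.0%), beside 55.7% and 48.1% of all sites. MCSF + IL-4 was nearer to DMSO + IL-4 at 64.3% after centring, beside 60.7% of all sites.

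The closed class did not grade with the IL-4 fold as the induced class did. The median of LatA + IL-4 against DMSO was 0.19 at the 1448 sites of 1.5- to 2-fold and 0.07 at the 291 sites of 2- to 3-fold. Only 99 sites were at least 3-fold lower in IL-4, and there 21 were lower, 35 within 1.5-fold and 43 higher in LatA + IL-4 than in DMSO, beside 38, 35 and 26 in DMSO + IL-4. As shares, 43.4% were higher and 21.2% lower with LatA + IL-4, against 41.5% and 5.84% of all sites, and 26.3% were higher and 38.4% lower in DMSO + IL-4, against 14.1% and 10.4%.

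**Figure D4:**
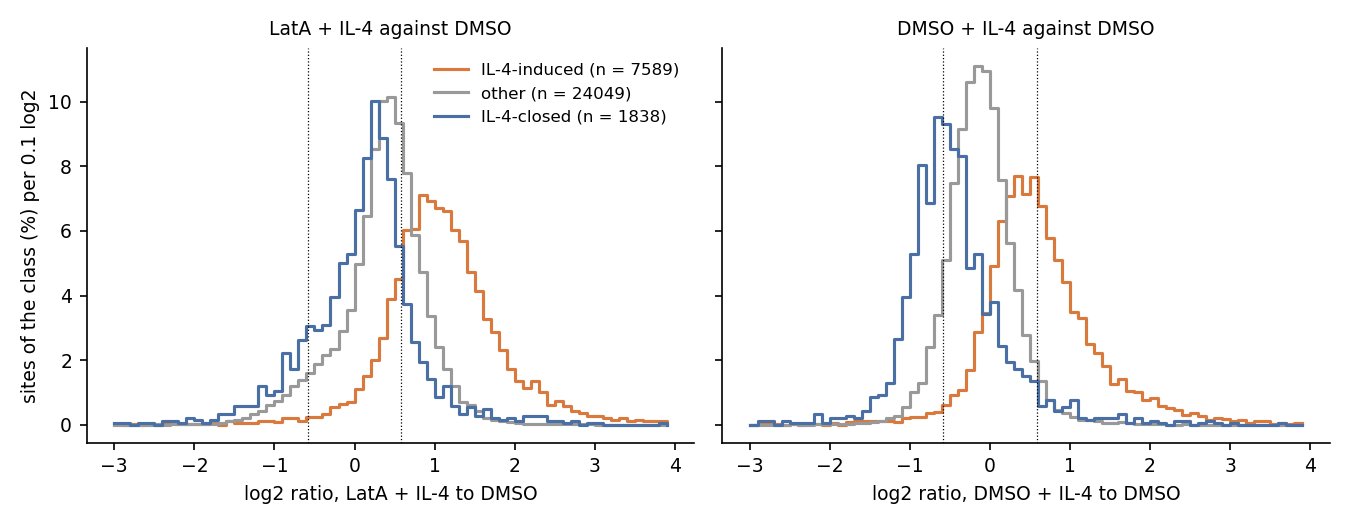
Distribution of the log2 ratio to DMSO (x axis) of LatA + IL-4 (left) and DMSO + IL-4 (right) over IL-4-induced, other and IL-4-closed sites, as the share of the class (%) in each bin of 0.1 (y axis); dotted lines mark 1.5-fold. Induced sites lie to the right of the other sites in both panels, with medians of 1.06 and 0.55, and closed sites have medians of 0.18 and −0.51.

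The 6 sites with the largest IL-4 fall were less uniform than those with the largest rise. Against DMSO, LatA + IL-4 was higher at 3 of them, within 1.5-fold at 2 and lower at 1, and DMSO + IL-4 was higher at 2, within at 1 and lower at 3. The fall that recurred was at chr19:38105170-38105761, with 185 reads in Untreated and 228 in DMSO, against 8 in IL-4, 13 in LatA + IL-4, 38 in DMSO + IL-4 and 56 in MCSF + IL-4. All 4 libraries with IL-4 were below both resting ones, and LatA + IL-4 was the lowest of the 3 that are set against DMSO, at 15.0-fold below it (8.58 to 28.6). The site at chr12:5512677-5513780 had 0 reads in IL-4 but 118 in Untreated and 119 in DMSO, with 127 in LatA + IL-4, 71 in DMSO + IL-4 and 81 in MCSF + IL-4. IL-4 was at least 29.6-fold lower than Untreated there by the floor of 3 reads (the limit of the exact interval was 23.7). LatA + IL-4 and DMSO differed by 1.25-fold (0.966 to 1.62). At chr4:144549635-144550370 LatA + IL-4 stood above every other library, with 58 reads in Untreated and 40 in DMSO, against 1 in IL-4, 186 in LatA + IL-4, 15 in DMSO + IL-4 and 65 in MCSF + IL-4, which is a 5.45-fold rise over DMSO (3.85 to 7.87). That site was also among the 5 with the highest ratio of LatA + IL-4 to DMSO among the sites closed at least 3-fold with at least 20 reads in DMSO or IL-4, which ran from 2.10 to 2.74 on the log2 scale. At the highest of these, chr6:137774950-137775531, there were 112 reads in Untreated and 15 in DMSO, against 23 in IL-4, 91 in LatA + IL-4, 12 in DMSO + IL-4 and 69 in MCSF + IL-4, so that the DMSO library was already at the IL-4 level. Both this site and chr4:144549635-144550370 passed the filter only through their LatA + IL-4 reads. A high value in that library was therefore partly set by the filter.

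Read from the other side, the list of higher sites held more induced sites than the compared sites as a whole. Of the 13907 sites higher in LatA + IL-4 than in DMSO, 6141 were IL-4-induced (44.2%), 7456 were neither (53.6%) and 310 were IL-4-closed (2.23%), beside 22.7%, 71.8% and 5.49% of all sites. The 7456 sites were chosen on the DMSO library that the other ratios share, so their medians are a description. As measured, the median log2 ratio to DMSO was 0.81 with LatA + IL-4, 0.58 with MCSF + IL-4 and 0.07 with DMSO + IL-4, where all sites had 0.48, 0.32 and −0.041. The 1954 lower sites held 112 induced (5.73%), 1586 other (81.2%) and 256 closed sites (13.1%), against the same shares of all sites. At the 1586 sites, chosen in the same way, the median was −0.85 with LatA + IL-4, −0.53 with MCSF + IL-4 and −0.22 with DMSO + IL-4. A further comparison that shares no library, MCSF + IL-4 against Untreated, called 18639 sites higher (55.7%) and 1738 lower (5.19%). Of the sites lower in LatA + IL-4 than in DMSO, 796 were lower there too, which is 40.7% of the former list and 45.8% of the latter. For higher sites the shared number was 11368, which is 81.7% and 61.0% of the lists.

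The 5 sites with the largest rise in LatA + IL-4 against DMSO, chosen on that ratio and given as a description, had 1 to 6 reads in DMSO and 89 to 192 in LatA + IL-4. All 5 were also higher than DMSO in DMSO + IL-4 (20 to 78 reads) and in MCSF + IL-4 (35 to 196 reads). Because these ratios share the low DMSO count by which the sites were chosen, this agreement was nearly set by the choice. The first, chr9:100389029-100389778, had 5 reads in Untreated and 1 in DMSO, against 99 in IL-4, 132 in LatA + IL-4, 78 in DMSO + IL-4 and 69 in MCSF + IL-4, which is a pattern that separates the libraries with IL-4 from those without. With 1 read in DMSO, its ratio of LatA + IL-4 to DMSO was 155 with a counting interval from 27.3 to 6151. At chr10:8012783-8013535, by contrast, DMSO with 1 read stood below Untreated with 57, and there were 117 reads in IL-4, 89 in LatA + IL-4, 67 in DMSO + IL-4 and 196 in MCSF + IL-4. Of the 5, the site with the most reads in LatA + IL-4, chr10:61679361-61679929, had 11 in Untreated and 6 in DMSO, against 43 in IL-4, 192 in LatA + IL-4, 52 in DMSO + IL-4 and 35 in MCSF + IL-4. There LatA + IL-4 was 37.5-fold above DMSO (16.9 to 103), and DMSO + IL-4 was 11.9-fold above it (5.12 to 33.9). This site passed the filter only through its LatA + IL-4 reads, so the larger value in that library was partly set by the filter.

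Among the 5 sites with the largest fall, LatA + IL-4 had 0 to 13 reads and DMSO had 31 to 228. At chr5:114545865-114547182 there were 118 reads in Untreated and 139 in DMSO, against 39 in IL-4, 0 in LatA + IL-4, 31 in DMSO + IL-4 and 38 in MCSF + IL-4, so all libraries with IL-4 were below the resting ones. LatA + IL-4 was at least 39.6-fold below DMSO by the floor of 3 reads (the limit of the exact interval was 31.8). At chr19:7197857-7199343 LatA + IL-4 was alone, with 31 reads in Untreated and 112 in DMSO, against 132 in IL-4, 1 in LatA + IL-4, 115 in DMSO + IL-4 and 103 in MCSF + IL-4. This site and chr14:47303574-47304858, which had 1 read in LatA + IL-4 and 91 in DMSO, were also the lowest of the sites induced at least 3-fold.

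Falls against DMSO were concentrated at wide, sparsely covered sites. Of the 1954 lower sites, 1306 (66.8%) were at least 1000 bp wide, beside 27.1% of all compared sites. The median log2 ratio of LatA + IL-4 to DMSO was 0.65 at the 5994 sites under 500 bp and −0.22 at the 2174 sites of 1500 bp or more, where 26.6% were lower and 14.0% higher. The same width classes had medians of 0.07 and −0.08 in DMSO + IL-4 against DMSO. By coverage, the 4760 sites with under 60 normalized reads per kb held 1092 of the lower sites (55.9%, beside 14.2% of all sites), and their median was −0.21 in LatA + IL-4 and −0.04 in DMSO + IL-4.

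The induced-site median stayed above DMSO in every width class as measured. The median of LatA + IL-4 against DMSO at induced sites was 1.08 under 500 bp, with 82.5% of 2004 sites higher, where all sites of that width had 0.65 and 55.0%. At 1500 bp or more it was 0.60, with 50.3% of 187 sites higher, where all sites had −0.22 and 14.0%. Closed sites also differed by coverage. At the 180 closed sites with at least 200 normalized reads per kb, the median was −0.33 for LatA + IL-4, with 29.4% lower, and −0.66 for DMSO + IL-4, with 58.9% lower, beside 4.58% and 5.71% of all sites of that coverage. At the 480 closed sites of 90 to 130 reads per kb, the medians were 0.30, with 4.38% lower, and −0.51, with 43.3% lower, beside 2.01% and 12.2% of all such sites. Below 60 reads per kb the order turned, since at the 390 closed sites there LatA + IL-4 had a median of −0.28, with 33.1% lower, and DMSO + IL-4 one of −0.19, with 26.7% lower, beside 22.9% and 11.4% of all such sites. The part of width and coverage in these ratios was not tested.

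**Figure D5:**
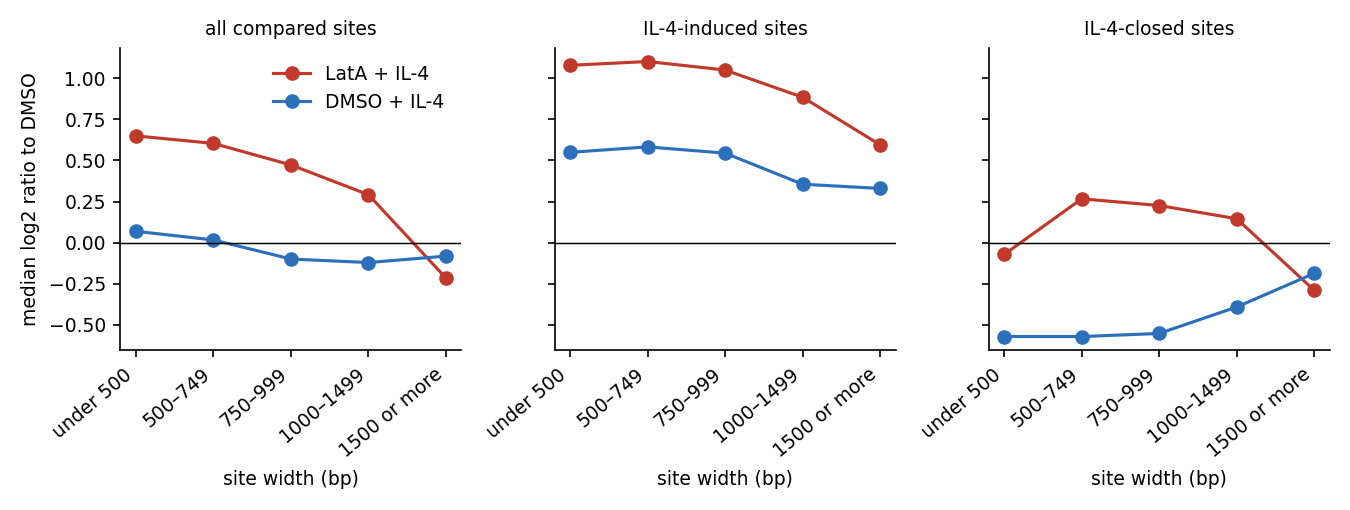
Median log2 ratio to DMSO (y axis) of LatA + IL-4 and DMSO + IL-4 by site width in bp (x axis), for all compared, IL-4-induced and IL-4-closed sites; each point is a median over the sites of the class, with no error bar because each library is single. For all sites LatA + IL-4 falls from 0.65 in the narrowest class to −0.22 in the widest, whereas DMSO + IL-4 stays between −0.12 and 0.07.

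The pattern at IL-4-induced sites did not rest on a few chromosomes. Over all sites of a chromosome, the median log2 ratio of LatA + IL-4 to DMSO ran from 0.43 to 0.54. On the 19 autosomes, the share of induced sites higher in LatA + IL-4 than in DMSO ran from 76.0% on chromosome 13 to 84.7% on chromosome 11. Closed sites varied more, with 5.65% of them lower in LatA + IL-4 than in DMSO on chromosome 11 and 29.4% on chromosome 14. Their median log2 ratio was −0.11 on chromosome 12 and −0.011 on chromosome 14, and above 0 on the other autosomes.

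Induced sites were dense in a few regions. Windows of 100 kb with at least 5 induced sites numbered 91. In 47 of them all induced sites were higher in LatA + IL-4 than in DMSO, and in 2 of them fewer than 50% were. Beside this, 80.9% of induced sites and 41.5% of all sites were higher, so the window counts are a description only. No such count was made for DMSO + IL-4 or for other sites. The densest stretch was chr14:44400001-44700000, with 44 induced sites among 52 compared ones. All 44 exceeded DMSO with latrunculin A, all 44 did with MCSF, and 33 did in the vehicle with IL-4, beside 41.5%, 32.9% and 14.1% of all sites. Summed over the 44 sites, normalized reads were 4318 in Untreated and 5956 in DMSO, against 11235 in IL-4, 19895 in LatA + IL-4, 11789 in DMSO + IL-4 and 15335 in MCSF + IL-4. As measured, LatA + IL-4 was 3.34-fold above DMSO there, beside 1.98-fold for DMSO + IL-4 and 2.57-fold for MCSF + IL-4, where the median folds over all sites were 1.40, 0.972 and 1.25. Another dense window, chr14:51800001-51900000, had 15 induced sites that were all higher in LatA + IL-4, by 3.62-fold in summed normalized reads, beside 2.22-fold for DMSO + IL-4. Its sums nearly equalled those of the 15 induced sites of chr14:44500001-44600000, which lies in the densest stretch. They were 1149 and 1148 in Untreated, 1564 and 1543 in DMSO, and 5660 and 5502 in LatA + IL-4. The windows may therefore hold the same reads and are not separate evidence, and whether they do was not tested. The lowest window was chr11:3000001-3100000, where 0 of 5 induced sites were higher in LatA + IL-4 and 3 were in DMSO + IL-4. Aligned reads could be reported at several places in the genome, so sites in repeated sequence may share reads, and which windows this touches was not tested.

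The peak lists, which the authors called on each library, were compared at the same sites. Of the 1142 sites induced at least 3-fold, 845 overlapped a DMSO peak (74.0%), 1128 a LatA + IL-4 peak (98.8%), 1129 a DMSO + IL-4 peak (98.9%) and 709 an Untreated peak (62.1%). The shares of all compared sites were 97.8%, 97.7%, 98.3% and 97.6%, so DMSO and Untreated were the ones below them. For Untreated this was set by the choice of sites, and only the DMSO share is separate from it. A peak in LatA + IL-4 without one in DMSO stood at 292 of these sites (25.6%), beside 293 for DMSO + IL-4 (25.7%), and the reverse at 9 sites in each case. At the 24049 other sites such gains came to 0.703% and 0.653%. At the 1838 closed sites, a DMSO peak was without a LatA + IL-4 peak at 75 (4.08%) and without a DMSO + IL-4 peak at 52 (2.83%), beside 1.96% and 1.34% of all sites. IL-4 peaks that overlapped no Untreated peak and were enriched at least 5-fold over the local background numbered 14744. Of these, 4801 overlapped a DMSO peak (32.6%), 8484 a LatA + IL-4 peak (57.5%), 7885 a DMSO + IL-4 peak (53.5%) and 8340 an MCSF + IL-4 peak (56.6%). IL-4 peaks of that enrichment with an Untreated peak overlapped the same lists at 91.9%, 91.9%, 91.6% and 91.3%. Without the limit on enrichment there were 83601 such IL-4 peaks, and the shares lay closer together, at 27.2% for DMSO, 34.2% for LatA + IL-4, 32.1% for DMSO + IL-4 and 33.4% for MCSF + IL-4. In the other direction, 117186 Untreated peaks overlapped no IL-4 peak, and 30.6% of these overlapped a DMSO peak, 22.3% a LatA + IL-4 peak and 24.8% a DMSO + IL-4 peak. With at least 5-fold enrichment the shares were 38.5%, 35.5% and 34.7%, so the order of the libraries with IL-4 turned. IL-4 peaks with an Untreated peak, at any enrichment, overlapped these lists at 75.5%, 68.5% and 70.6%. Over whole autosomal lists, 54.5% of the 208862 LatA + IL-4 peaks overlapped a DMSO peak by at least 1 bp, and 53.6% of the 213765 DMSO peaks overlapped a LatA + IL-4 peak. Lists of DMSO + IL-4 and DMSO, which also share the DMSO library, overlapped at 55.4% and 53.8%.

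Across sites, the ratio of LatA + IL-4 to DMSO had a Pearson correlation of 0.55 (Spearman 0.54, 33476 sites) with the ratio of IL-4 to Untreated. The corresponding value was 0.63 for DMSO + IL-4 against DMSO and 0.60 for MCSF + IL-4 against DMSO. The points are sites within 1 pair of libraries each, which share depth and base composition and are not independent replicates.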

How the data were processed

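ATAC-seq reads of 6 libraries had been trimmed with Cutadapt, aligned to mm9 with Bowtie2 (up to 10 alignments per read), cleared of duplicates with Picard, and counted in sites with featureCounts; versions are not given in the sources used here. The deposited site table holds a signal per site, which the authors scaled to library size with edgeR's trimmed mean of M-values. Within a column the values rise in steps of 1 read, and whole reads were recovered for 100% of values (tolerance 0.001 of a read). In the deposited MACS2 peak lists (q of 0.05, per library), the authors give a fold enrichment, a ratio to local background, a −log10 p-value and q-value, and a score that restates the q-value. The score and the p-value were not used.

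The effective library sizes implied by the deposited scaling were kept, and reads were brought to their geometric mean. Single ratios have exact Clopper-Pearson intervals, which cover counting error only, because reads lacked molecular identifiers and may repeat a molecule. Against a library with 0 reads, a floor of 3 reads per library was used, which gives a higher bound than the exact 2-sided interval. With 1 library per group there are no p-values. The ratios and intervals were tested on simulated data. Python 3.11.15, numpy 2.4.6, pandas 2.3.3 and scipy 1.17.1 were used.

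The sites and lists were chosen with earlier results of these data known. Filter means nearest to 3.2 were 3.20001 and 3.19999, and 1435 sites lay within 0.1 above it and 1609 within 0.1 below. Named sites were the 10 largest rises and 6 largest falls in IL-4 against Untreated and the 5 of each in LatA + IL-4 against DMSO, by the bound of the interval nearest to no change. Further named sites were the 5 lowest ratios of LatA + IL-4 to DMSO among sites induced at least 3-fold and the 5 highest among sites closed at least 3-fold, with at least 20 reads in DMSO or IL-4. Centring, width, coverage and window classes were added after the data were seen. The reference annotation is of another build than mm9, so gene names, lists of IL-4 and actin genes, cell type markers and sequences at sites are not analysed here, and the labelled cell type was not checked against markers.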

Additional observations from a re-analysis of the deposited data

Results flagged for a closer look

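At IL-4-closed sites, as measured, the libraries with latrunculin A and in the vehicle lay on opposite sides of DMSO: the median log2 ratio to DMSO was 0.18 with latrunculin A and −0.51 in the vehicle, and it was −0.07 with MCSF + IL-4. Relative to all sites both lay below 0, at −0.30 and −0.47, and the sign with latrunculin A turned under 4 settings given under the processing. Over all compared sites the medians were 0.48 and −0.041. These differences between treatments were not tested, because each group is 1 library, and both comparisons share the DMSO library.

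Chromosome X lies outside the autosomal sites of the report. Of its 1865 sites that passed the same filter, 336 were higher and 499 lower in LatA + IL-4 than in DMSO, with a median log2 ratio of −0.20, whereas DMSO + IL-4 against DMSO gave −0.05. At the 186 of these sites that were IL-4-induced the median was 0.87, and 131 were higher and 1 was lower in LatA + IL-4 than in DMSO.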

How the results depend on the processing

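With 1 library per group no replicate could be left out. No paired analysis was possible because each group has 1 library and no result comes from a test. Under the 11 alternatives for IL-4-induced sites the median relative to all sites stayed above 0, from 0.34 to 1.36, and under the 11 for closed sites it lay below 0, from −0.52 to a value near 0, −0.06, which came from the 99 sites closed at least 3-fold. For the 32 named sites, 127 of 128 recomputed log2 ratios to DMSO had the sign reported. With 5 reads added in place of 1, the log2 ratio at chr9:100389029-100389778 moved from 6.20 to 4.61 and at chr10:8012783-8013535 from 5.64 to 4.07. The cause of the following changes was not tested, except where sites are fewer or a split is near even by construction. The share of induced sites higher than in DMSO was 83.0% when scaled on the total of reads in sites, 82.3% with median-of-ratios size factors and 71.5% with reads outside sites of at least 1000 reads. It was 72.6% at a 2-fold threshold, 81.8% at a mean of at least 6.4, 42.6% with no filter, 56.8% with the trend over 20 bins of mean reads removed, 91.2% for sites past 3-fold and 88.6% for sites whose interval excluded 1.5-fold. The share of closed sites lower than in DMSO was 18.8% with reads outside large sites as the scale, 8.72% at 2-fold, 10.9% at a mean of at least 6.4 and 35.1% with no filter. It was 16.2% with the filter on the other 4 libraries, 28.8% with the trend removed, 21.2% past 3-fold and 24.5% by the interval. The closed-site median turned from 0.18 to −0.022 with reads outside large sites as the scale, −0.16 with no filter, −0.30 with the trend removed and −0.035 by the interval. These shares are to be set beside the counts over all sites. Of 33476 sites, 14683 were higher and 1830 lower on total reads in sites, and 14175 and 1907 with median-of-ratios size factors. The counts were 9249 and 3003 with reads outside large sites, and 6124 and 688 at 2-fold. They were 4690 and 454 of 12651 at a mean of at least 6.4, and 12899 and 2160 of 32075 with the filter on the other 4 libraries. With no filter, 150148 were higher and 146474 lower of 533249. With the trend removed they were 5330 and 4873, a near-even split set by subtracting the median of each bin. With Untreated as the control 23229 sites were higher. Shared peaks came to 42.6% of the LatA + IL-4 list and 41.7% of the DMSO list at an overlap of 50% of each peak, and to 54.7% and 53.9% for q of at most 0.001. Depth limits single sites, since a site at the filter has 39.9 to 66.8 reads in a library.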
